A study of Mus musculus with 2 samples.

Results

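Neurexins, neuroligins and the leucine-rich repeat transmembrane (LRRTM) proteins are adhesion molecules that meet across the synaptic cleft. The genes described here are Nrxn2, Nrxn3, Nlgn1, Nlgn2, Nlgn3, Lrrtm1, Lrrtm2, Lrrtm3 and Lrrtm4. They were chosen by gene symbol, make up 9 of the 55536 annotated mouse genes in the deposited tables, and have 65 annotated transcripts. Total RNA had been sequenced from the hippocampus of B6CASTF1/J females aged 10 days, first-generation hybrids between a laboratory strain and a wild-derived one. Both libraries, biological replicates 2 and 1, belonged to 1 group, and each pooled 3 animals, with 300 ng of RNA as input. The libraries were stranded and depleted of ribosomal RNA, and carried ERCC spike-ins, which are added synthetic RNAs. No treatment, genotype or age differed between them. A value is an average over a pool of animals, and the spread between the replicates is that between 2 pools. The tissue label speaks of a layer of hippocampus that it does not identify.

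Neurexins sit mainly on the presynaptic side. Each neurexin gene makes a long alpha form and a short beta form from separate promoters, and both forms share the transmembrane and intracellular end. Neuroligins and LRRTM proteins are postsynaptic partners that bind neurexins across the cleft. A small alternative exon of the neurexins, called splice site 4, changes which partners can bind, and splice sites A and B of the neuroligins do the same from the other side. Neuroligin-1 is known mainly from excitatory synapses, neuroligin-2 from inhibitory synapses and neuroligin-3 from both, while the LRRTM proteins are known from excitatory synapses.

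Replicate 2 held 32275110 expected counts and replicate 1 held 29858328, where an expected count is the estimated number of reads of a gene. Levels are given as TPM, transcript abundance on a fixed total, which corrects for transcript length so that genes can be compared with each other. They come from a table estimated from alignments, called the alignment-based table. A second table, estimated from the reads without alignments, is called the read-based table. Markers of glutamatergic neurons summed to 2213 TPM in replicate 2 and 1828 TPM in replicate 1, and genes known from subiculum and neocortex to 103 TPM in replicate 2 and 134 TPM in replicate 1. By adjusted p under 0.05 alone, 3 of the 5 glutamatergic genes were higher in replicate 2 and 1 in replicate 1. This lean was not particular to them. Higher in replicate 2 were 4 of 5 GABAergic interneuron genes, 3 of 5 astrocyte genes and 3 of 5 oligodendrocyte precursor genes. The same held for 2 of 5 microglial and 2 of 5 endothelial genes, and 0 of these 5 lists were higher in replicate 1. Of the 5 subicular and neocortical genes, 0 were higher in replicate 2 and 3 in replicate 1. Among these, Fn1 had 36.31 TPM in replicate 2 and 57.05 TPM in replicate 1. Its log2 ratio of replicate 2 over replicate 1, -0.59, was the largest of the list in size, while Rorb was at 0.06. Of all genes, 14.6% were higher in replicate 2 and 12.1% in replicate 1 by this measure. A list of 7 genes of myelinating oligodendrocytes differed between the libraries, with summed levels of 570.4 TPM in replicate 2 and 194.07 TPM in replicate 1. All 7 were called higher in replicate 2 by the test described with the library comparison, where 0.56% of all genes tested were, and none of them was at 0 in either library. In bulk tissue, fewer cells of a type and less RNA per cell cannot be told apart.

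All 9 genes were expressed, over a 26.7-fold range of mean TPM. Their median was 50.3 TPM, against 15.4 TPM for the 13019 nuclear protein-coding genes that reached 1 TPM in both libraries. Nrxn2 was the most abundant, the neuroligins and Nrxn3 lay in the middle, and Lrrtm2, Lrrtm3 and Lrrtm4 were the lowest.

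**Figure D1:**
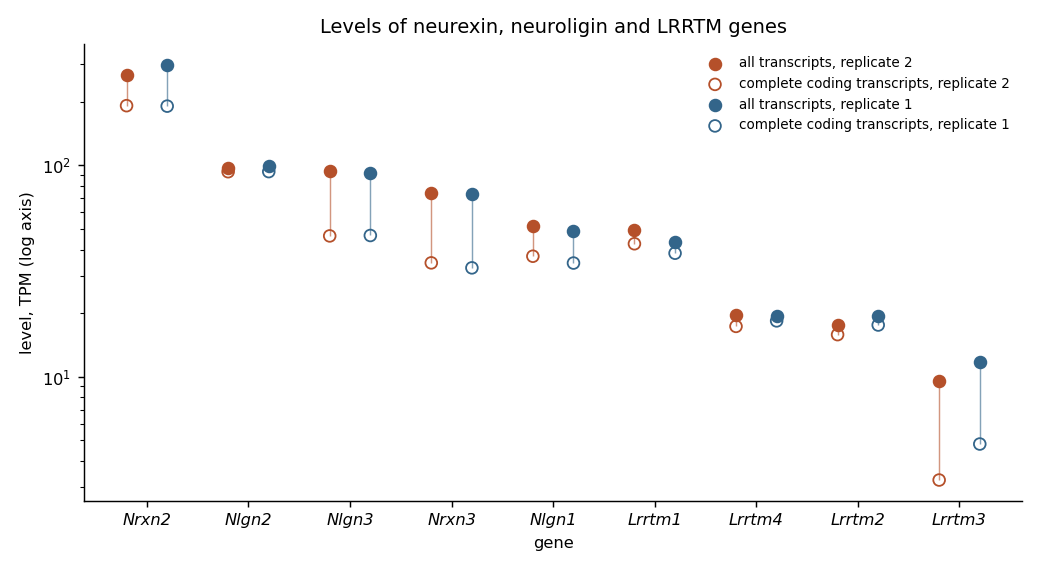
Level of each gene in TPM on a log axis, with replicate 2 to the left of replicate 1. Filled points are all transcripts of the gene and open points are its complete coding transcripts; the line joins the values of 1 library. Nlgn2 lost little when only complete coding transcripts were counted, whereas Nrxn3, Nlgn3 and Lrrtm3 lost about as much as they kept or more.

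Among the presynaptic receptors, Nrxn2 (ENSMUSG00000033768.17, chr19:6418731-6544169, plus strand, mm10) had 269 TPM in replicate 2 and 299 TPM in replicate 1, a mean of 284 ± 21.3 TPM (SD, n = 2). That level exceeded 98.7% of the detected protein-coding genes. Nrxn3 (ENSMUSG00000066392.11, chr12:88722876-90334935, plus strand), a gene that spans 1612 kb, had 74.0 TPM in replicate 2 and 73.6 TPM in replicate 1. The level of Nrxn2 was 3.84-fold that of Nrxn3, a log2 ratio of 1.94 ± 0.11 (SD, n = 2), so the difference between the genes was much larger than the spread between the libraries. In the read-based table the same ratio was 3.19-fold.

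The 2 libraries differed in what made up the Nrxn2 total. Complete coding transcripts, those annotated with both a start and a stop codon, held 191.6 TPM in replicate 2 and 190.6 TPM in replicate 1. Processed transcripts, which have no annotated coding sequence, held 16.9% of the gene in replicate 2 and 26.3% in replicate 1. The coding part of Nrxn2 was therefore nearly equal between the libraries while the total TPM was lower in replicate 2. In expected counts, which are neither per length nor scaled to depth, the gene had 21063 in replicate 2 and 20046 in replicate 1. Replicate 2 also held more counts in all. The log2 ratio of replicate 2 over replicate 1 was -0.0401 when scaled to total counts. It was 0.03 with the scaling of the library comparison given later, so its direction depended on the scaling. The largest non-coding entry in the alignment-based table was Nrxn2-213, of 576 bases, at 25.1 TPM in replicate 2 and 43.7 TPM in replicate 1. The read-based table gave Nrxn2-213 7.88 TPM in replicate 2 and 55.0 TPM in replicate 1, and put more into Nrxn2-217, at 52.4 TPM in replicate 2 and 63.3 TPM in replicate 1, so which entry held the non-coding part depended on the table.

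Coding transcripts of 5000 bases or more were counted as long, the class of the alpha form, and shorter coding transcripts as short. For Nrxn2, the long class held 34.3% of the gene in replicate 2 and 32.7% in replicate 1, and the short class held 46.0% in replicate 2 and 37.8% in replicate 1. For Nrxn3, the long class held 36.8% in replicate 2 and 35.0% in replicate 1, and the short class held 9.88% in replicate 2 and 9.48% in replicate 1. By this length rule, Nrxn2 thus had more short than long coding molecules, and Nrxn3 had mostly long ones, in both libraries. In TPM, the short class of Nrxn2 stood at 118 ± 7.55 and that of Nrxn3 at 7.15 ± 0.240 (SD, n = 2).

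Length alone does not separate alpha from beta. The short class of Nrxn2 holds the 648-base fragment Nrxn2-209, which lies wholly in the part of the gene that only alpha transcripts cover, at 24.6 TPM in replicate 2 and 20.3 TPM in replicate 1. The short class of Nrxn3 holds Nrxn3-201 and Nrxn3-210, which begin upstream of the beta start. Counted by where they start, transcripts from the beta start made up 44.95 ± 1.36% of the coding TPM of Nrxn2 and 17.2 ± 0.0422% of that of Nrxn3 (SD, n = 2). The read-based table gave 35.8% for Nrxn2 and 17.1% for Nrxn3. This count by start was added after the values had been seen. By either count and in either table, the beta share was higher in Nrxn2 than in Nrxn3.

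**Figure D2:**
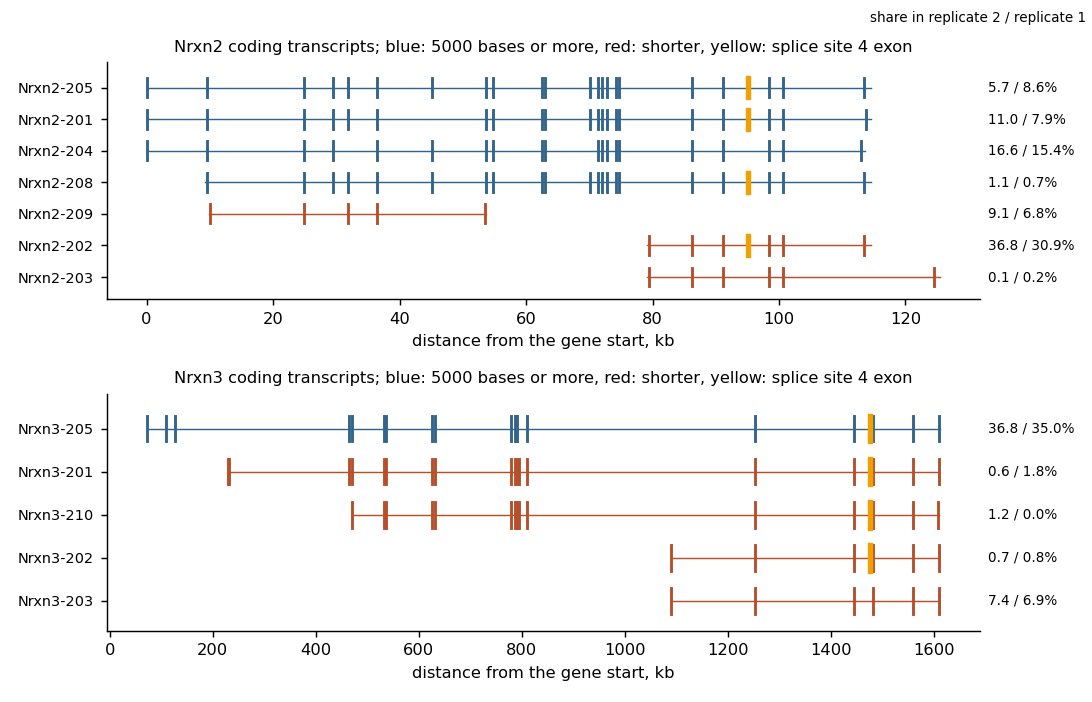
Exons of the coding transcripts of Nrxn2 and Nrxn3, as distance from the start of the gene in kb. Blue transcripts are 5000 bases or longer, red ones are shorter, and the splice site 4 exon is yellow; numbers at the right are the deposited shares of the gene in replicate 2 and then replicate 1. The 2 unexpressed long Nrxn2 transcripts are not drawn. Nrxn2-202, a beta transcript with the yellow exon, was the largest of Nrxn2, and Nrxn3-203, the main beta transcript of Nrxn3, lacks that exon.

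The splice site 4 exon is 90 bases long in both genes and lies at chr12:90199147-90199236 in Nrxn3. The Nrxn3 exon is shown, in lower case throughout. The leading beta transcript of Nrxn2 has a splice site 4 exon and that of Nrxn3 lacks it. Its sequence was read from the annotated GENCODE M21 transcripts.
Nrxn3 splice site 4 exon: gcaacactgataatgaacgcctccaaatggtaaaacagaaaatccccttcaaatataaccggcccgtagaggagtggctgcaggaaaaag

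Of the Nrxn2 transcripts from the beta start, 99.7% of TPM in replicate 2 and 99.5% in replicate 1 carried the exon. Of the Nrxn3 transcripts from the beta start, 8.70% in replicate 2 and 10.5% in replicate 1 carried it. By annotated transcripts, the beta TPM thus lay nearly all in Nrxn2-202, with the exon, and mostly in Nrxn3-203, without it. In the read-based table the beta forms carried it at 99.1 ± 0.218% in Nrxn2 and 28.1 ± 1.11% in Nrxn3 (SD, n = 2). Within a gene, the 2 beta transcripts also differ in their last exon: Nrxn2-202 codes for 1980 bases and Nrxn2-203 for 1059, and Nrxn3-202 codes for 1701 and Nrxn3-203 for 1290. The split between them therefore rests on more than this exon. Neither gene has annotated beta transcripts that differ by this exon alone. The shares are thus bound by the annotation and are no measure of a difference in exon use between the genes.

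Among long Nrxn2 transcripts, 51.6% of TPM in replicate 2 and 52.9% in replicate 1 had the exon. All of the long transcripts without it were Nrxn2-204, at 44.7 TPM in replicate 2 and 46.1 TPM in replicate 1. The single long Nrxn3 transcript, Nrxn3-205, has the exon, so the annotation allows no alpha form without it and the share of 100% is set by the annotation. Nrxn3-205 was the leading transcript of its gene, with 27.3 TPM in replicate 2 and 25.8 TPM in replicate 1.

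**Figure D3:**
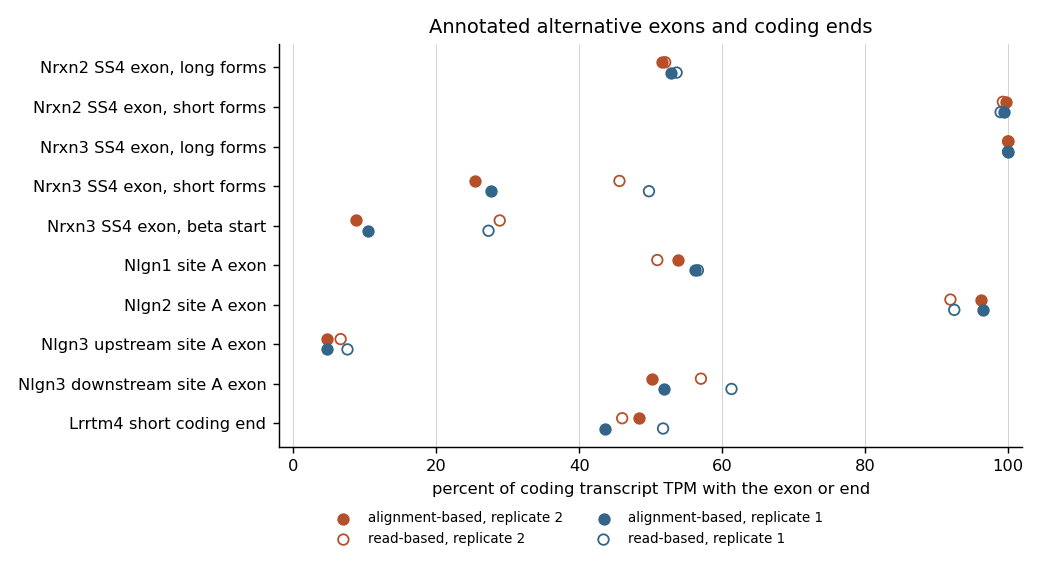
Percent of coding transcript TPM that carries each annotated alternative exon, or the short coding end of Lrrtm4, in replicate 2 (red) and replicate 1 (blue). Filled points are from the alignment-based and open points from the read-based table. Short forms of Nrxn2 lie near 100 and those of Nrxn3 far lower, among annotated transcripts that differ in more than this exon. The neuroligin exons range from under 10 in the upstream exon of Nlgn3 to over 90 in Nlgn2, which has no complete annotated transcript without its exon.

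The leading transcripts of both classes end in the same coding sequence within each neurexin gene. The intracellular end of neurexins is known to bind the PDZ domain of the scaffold CASK. The last 30 coding bases before the stop codon are shown because these alpha and beta forms share them, with the last 12 in capitals. Nrxn2-204 (long) and Nrxn2-202 (short) have the first sequence, and Nrxn3-205 (long) and Nrxn3-203 (short) have the second.
Nrxn2: aagaagaacaaagacaaaGAGTATTACGTC
Nrxn3: cagaaaaacaaggacaagGAGTATTATGTG

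Nrxn3 had a large share of transcripts that are not annotated to make protein. Complete coding transcripts held 46.7% of the gene in replicate 2 and 44.5% in replicate 1. Retained-intron transcripts held 28.5% in replicate 2 and 27.8% in replicate 1, and transcripts marked for nonsense-mediated decay held 15.2% in each library. The libraries were depleted of ribosomal RNA and not selected for poly(A) tails, and the share of unspliced nuclear RNA was not tested.

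On the postsynaptic side, the 3 neuroligins together had 243 TPM in replicate 2 and 241 TPM in replicate 1. Nlgn2 (ENSMUSG00000051790.15, chr11:69823122-69837784, minus strand) had 97.5 TPM in replicate 2 and 99.4 TPM in replicate 1. Nlgn3 (ENSMUSG00000031302.16, chrX:101299168-101325963, plus strand) had 94.0 TPM in replicate 2 and 92.1 TPM in replicate 1. Nlgn1 (ENSMUSG00000063887.13, chr3:25426215-26332460, minus strand) had 51.5 TPM in replicate 2 and 49.2 TPM in replicate 1. In share of the family, Nlgn2 took 40.7 ± 0.818%, Nlgn3 38.5 ± 0.287% and Nlgn1 20.8 ± 0.531% (SD, n = 2). Nlgn1 was the lowest of the 3 in both libraries and both tables.

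Which neuroligin led depended on the table. Nlgn2 over Nlgn3 had a log2 ratio of 0.08 ± 0.04 in the alignment-based table and -0.34 ± 0.05 in the read-based table (SD, n = 2). The read-based table gave 182 TPM in replicate 2 and 188 TPM in replicate 1 for Nlgn3. In that table, 34.4% of Nlgn3 in replicate 2 and 41.9% in replicate 1 belonged to processed transcripts, which held 1.65% in replicate 2 and 2.51% in replicate 1 in the alignment-based table. Counting complete coding transcripts alone, Nlgn2 was above Nlgn3 in both tables, at 93.4 ± 0.0707 against 46.5 ± 0.148 TPM in the alignment-based table and at 135 ± 1.52 against 67.6 ± 0.936 TPM in the read-based table. This count leaves out coding fragments, which weigh more in Nlgn3. In the alignment-based table, Nlgn3-203 had 46.0 TPM in replicate 2 and 43.2 TPM in replicate 1. The fragment Nlgn2-203 had 3.68 TPM in replicate 2 and 3.45 TPM in replicate 1. Nlgn3 also overlaps the non-coding gene Gm21986 on the same strand, which took 66.3 expected counts in replicate 2 and 100.9 in replicate 1.

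Nlgn2 consisted almost wholly of 1 transcript, Nlgn2-202, with 93.3% of the gene in replicate 2 and 86.9% in replicate 1. Nlgn1 was spread over 5 transcripts, of which the retained-intron transcript Nlgn1-204 took 27.8% in replicate 2 and 29.8% in replicate 1. The coding transcript Nlgn1-203 took 28.8% in replicate 2 and 26.4% in replicate 1, so the libraries differed in which transcript led. For Nlgn3, the fragment Nlgn3-203, annotated without a complete coding sequence, took 49.0% in replicate 2 and 46.9% in replicate 1. The read-based table gave that fragment 28.2% in replicate 2 and 22.5% in replicate 1, and there the full transcript Nlgn3-201 led.

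**Figure D4:**
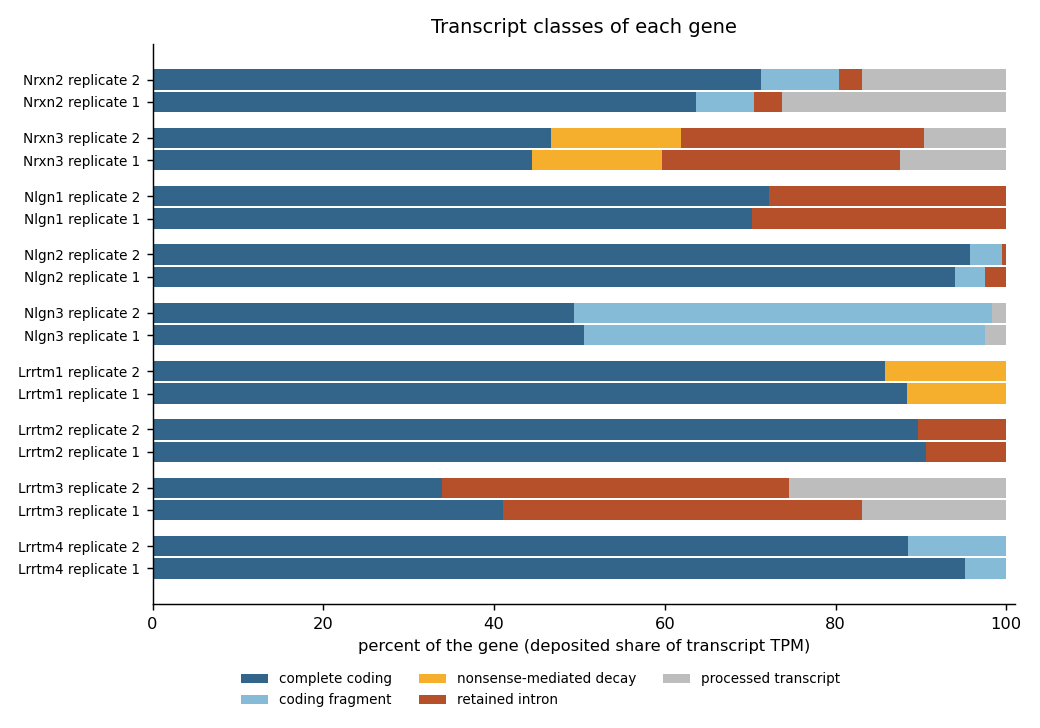
Share of each gene by annotated transcript class, in percent, with the bar of replicate 2 above that of replicate 1. Nlgn2, Lrrtm1, Lrrtm2 and Lrrtm4 are mostly complete coding transcripts, whereas Nrxn3 and Lrrtm3 are mostly other classes and Nlgn3 is split between complete transcripts and 1 fragment.

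The site A exons of the neuroligins are shown because the shares of transcripts given next are counted on them. They lie at chr3:25920178-25920237 in Nlgn1, chr11:69830563-69830613 in Nlgn2, and chrX:101303072-101303131 (upstream) and chrX:101307075-101307134 (downstream) in Nlgn3. Capitals mark bases that are the same, position by position from the first base, between Nlgn1 and the downstream exon of Nlgn3 (43 of 60), between Nlgn2 and Nlgn1 (23 of 51, in the Nlgn2 line), and between the upstream and downstream exons of Nlgn3 (19 of 60, in the upstream line).
Nlgn1 site A exon: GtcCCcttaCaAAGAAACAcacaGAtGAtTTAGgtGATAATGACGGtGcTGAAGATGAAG
Nlgn2 site A exon: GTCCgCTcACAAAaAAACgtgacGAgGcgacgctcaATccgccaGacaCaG
Nlgn3 upstream site A exon: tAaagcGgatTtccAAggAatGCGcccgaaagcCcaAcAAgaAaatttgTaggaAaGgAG
Nlgn3 downstream site A exon: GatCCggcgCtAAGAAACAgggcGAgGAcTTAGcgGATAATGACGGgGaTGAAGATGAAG

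The Nlgn1 exon was in 53.9% of coding TPM in replicate 2 and 56.2% in replicate 1. Its annotated transcripts with the exon, Nlgn1-201 and Nlgn1-205, also carry a stretch of 27 bases at splice site B (chr3:25439865-25439891, gtaaccgttggagcaattcaaccaaag) that the other coding transcripts lack. Site A and site B therefore cannot be told apart for Nlgn1 in these tables. The Nlgn2 exon is annotated in all complete transcripts and is absent only from the 784-base fragment Nlgn2-203. It was in 96.2% of all coding TPM in replicate 2 and 96.4% in replicate 1.

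For Nlgn3, the downstream exon, which resembles that of Nlgn1, was in every complete transcript. It was absent only from the fragment Nlgn3-203, so its share of all coding TPM was 50.2% in replicate 2 and 51.9% in replicate 1. The upstream exon was in 9.42% of complete coding TPM in replicate 2 and 9.01% in replicate 1, all of it in Nlgn3-206. Only Nlgn1 has complete annotated transcripts both with and without its site A exon, apart from the upstream exon of Nlgn3. The values for Nlgn2 and for the downstream exon of Nlgn3 are set by the annotation and by 1 fragment each, and are no measure of a difference in use between the genes.

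The 3 neuroligins share the last 3 coding bases before the stop codon, at the end that is known to bind the PDZ domains of PSD-95. Their last 30 coding bases follow, with the last 12 in capitals, from Nlgn1-203, Nlgn2-202 and Nlgn3-201.
Nlgn1: cacccccattcacattcaACAACCAGGGTA
Nlgn2: ctaccccatccccactccACCACTCGGGTA
Nlgn3: ctgccccactcacactccACTACCCGTGTA

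Of the LRRTM genes, Lrrtm1 was the highest, near the level of Nlgn1, and the others were lower than the neuroligins. Lrrtm1 (ENSMUSG00000060780.2, chr6:77242689-77257791, plus strand) had 49.6 TPM in replicate 2 and 43.5 TPM in replicate 1. Lrrtm4 (ENSMUSG00000052581.13, chr6:80018877-80810143, plus strand), known in the hippocampus from dentate granule cells, had 19.6 TPM in replicate 2 and 19.3 TPM in replicate 1. Lrrtm1 took 48.9 ± 3.64% of the family and was 2.38-fold above Lrrtm4, a log2 ratio of 1.25 ± 0.12 (SD, n = 2).

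Lrrtm2 (ENSMUSG00000071862.3, chr18:35209003-35215024, minus strand), a high-affinity neurexin partner, had 17.7 TPM in replicate 2 and 19.4 TPM in replicate 1. Lrrtm3 (ENSMUSG00000042846.8, chr10:63928472-64090277, minus strand) had 9.60 TPM in replicate 2 and 11.7 TPM in replicate 1. Lrrtm3 was the lowest of the 9 genes in both libraries. It took 11.2 ± 1.78% of the LRRTM total, and Lrrtm1 was 4.35-fold above it, a log2 ratio of 2.12 ± 0.34 (SD, n = 2).

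Lrrtm1, Lrrtm2 and Lrrtm3 each lie inside an alpha-catenin gene on the opposite strand, Ctnna2, Ctnna1 and Ctnna3 in that order. Alpha-catenins link cadherins to actin. Ctnna2 had 57.5 TPM in replicate 2 and 69.0 TPM in replicate 1, Ctnna1 had 21.7 TPM in replicate 2 and 20.5 TPM in replicate 1, and Ctnna3 had 0.280 TPM in replicate 2 and 0.650 TPM in replicate 1. The order of the hosts was thus the order of the genes inside them for these 3 pairs, as a description only. The sources used here do not give whether counting used strand, so the levels of nested genes are uncertain.

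Only part of Lrrtm3 was coding. Its single complete coding transcript, Lrrtm3-201, held 3.25 TPM in replicate 2 and 4.81 TPM in replicate 1, and the retained-intron transcript Lrrtm3-204 held 3.91 TPM in replicate 2 and 4.93 TPM in replicate 1. In contrast, complete coding transcripts held 85.8% of Lrrtm1 in replicate 2 and 88.3% in replicate 1, and 89.7% of Lrrtm2 in replicate 2 and 90.5% in replicate 1.

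Lrrtm4 is annotated with different coding ends. The 3 complete transcripts led by Lrrtm4-206 and Lrrtm4-201 stop early after a sequence like the end of Lrrtm1, and the others, led by Lrrtm4-208, splice onward to a distant last exon. The ends are shown with the last 12 coding bases before the stop codon in capitals, beside that of the coding transcript of Lrrtm3.
Lrrtm1-202: caccagcagcctgcgaggGAATGCGAGGTG
Lrrtm4-206: accatctctggctccaggGAGTGTGAGGTA
Lrrtm4-208: cctgccatttatctggagAGAATAACAAAC
Lrrtm3-201: cgcatcagtgaccataaaCCACAGCTGGCC

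Transcripts with the early end held 48.4% of the complete coding TPM of Lrrtm4 in replicate 2 and 43.6% in replicate 1. The read-based table gave 46.0% in replicate 2 and 51.7% in replicate 1, so the libraries changed places between the tables while both ends stayed near equal use. Single transcripts were less stable than the ends: Lrrtm4-206 had 3.66 TPM in replicate 2 and 5.34 TPM in replicate 1, whereas Lrrtm4-201 had 4.72 TPM in replicate 2 and 1.98 TPM in replicate 1. The leading transcript was Lrrtm4-208 in both libraries of the alignment-based table. In the read-based table it led in replicate 2, at 26.9% of the gene. In replicate 1 of that table the fragment Lrrtm4-207 led, at 30.5% against 26.2% for Lrrtm4-208.

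Ranked by TPM, the order of the 9 genes was Nrxn2, Nlgn2, Nlgn3, Nrxn3, Nlgn1, Lrrtm1, Lrrtm4, Lrrtm2 and Lrrtm3. Neighbours were set apart where the log2 ratio had 1 sign in the 2 libraries and a mean above 2 SD, which held for 6 of 8 pairs. Nlgn1 and Lrrtm1 (log2 ratio 0.12 ± 0.09) and Lrrtm4 and Lrrtm2 (0.07 ± 0.11) did not differ beyond their spread. The read-based table also set 6 of 8 pairs apart, but not the same ones. There Nlgn3 was above Nlgn2 (0.34 ± 0.05) and Lrrtm4 was apart from Lrrtm2 (0.44 ± 0.03). Nlgn2 and Nrxn3 (0.13 ± 0.13) and Nlgn1 and Lrrtm1 (0.20 ± 0.12) were not apart in it. By complete coding transcripts alone, the order was Nrxn2, Nlgn2, Nlgn3, Lrrtm1, Nlgn1, Nrxn3, Lrrtm4, Lrrtm2 and Lrrtm3, and 7 of 8 pairs were apart, all but Nlgn3 and Lrrtm1. Nrxn3 thereby fell behind Lrrtm1 and Nlgn1, at 33.7 ± 1.29 TPM.

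Replicate 2 was then set against replicate 1, gene by gene, with an exact two-sided conditional binomial test and Benjamini-Hochberg adjustment over all 20544 genes with 10 or more counts. The test compares 2 libraries, not conditions, and has no replicate check. A gene was called at an adjusted p under 0.05 and a log2 ratio of 1 or more in either direction. None of the 9 genes was called (0 of 9), where 2.84% of all genes tested were, with 115 of those genes higher in replicate 2 and 469 in replicate 1. At an unadjusted p under 0.05 there were 8 of 9, where 35.7% of all genes were, and in the read-based table none of the 9 was called, where 3.2% of 23044 genes were. By adjusted p alone 6 of 9 passed, where 26.7% of all genes did. The test measures counting error, so genes with more counts pass more easily. Each of the 9 had 508 or more counts in each library, whereas all genes needed only 10 summed counts. The shares are not matched for counts. The median absolute log2 ratio of the 9 genes was 0.10, against 0.12 for the 12072 protein-coding genes with 200 or more counts.

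Lrrtm1 had the largest ratio towards replicate 2, with 2805 expected counts in replicate 2 and 2232 in replicate 1. Its log2 ratio was 0.29 ± 0.04 (counting SE), with an adjusted p of 5.01e-11 in the exact binomial test. Lrrtm3 had the largest ratio towards replicate 1, with 508 counts in replicate 2 and 631 in replicate 1, a log2 ratio of -0.36 ± 0.09 (counting SE) and an adjusted p of 0.000313 in the same exact test. Larger absolute ratios than these were found in 14.5% of the well-counted protein-coding genes for Lrrtm1 and in 8.53% for Lrrtm3. Lrrtm1 and Lrrtm3 thus had ratios of opposite sign between the pools. Scaled to the spike-ins, as described next, Lrrtm1 was at 0.0127, within its counting SE of 0, and Lrrtm3 at -0.63.

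The other 4 genes that passed by adjusted p alone, Nrxn3, Nlgn1, Nlgn2 and Nlgn3, had count ratios slightly towards replicate 2. For Nlgn2 the level in TPM went the other way, with 97.5 in replicate 2 and 99.4 in replicate 1, as it did for Nrxn2, with 269 in replicate 2 and 299 in replicate 1. Nrxn3 had 8160 counts in replicate 2 and 7201 in replicate 1, a log2 ratio of 0.14 ± 0.02 (counting SE), and the 3 neuroligins had log2 ratios from 0.10 to 0.15. Nrxn2 (0.03), Lrrtm2 (-0.09) and Lrrtm4 (0.01) did not pass. Scaled to the spike-ins in place of TMM effective sizes, the median log2 ratio of nuclear protein-coding genes was -0.26, against 0.02 with TMM. Under spike-in scaling Nrxn2, Nrxn3, Nlgn1, Nlgn2, Nlgn3 and Lrrtm4 turned to the other direction, and all genes then gave 88 calls towards replicate 2 and 1188 towards replicate 1. The order of the 9 ratios is the same under either scaling, which shifts all of them equally. Whether the myelin difference between the pools had a part in these ratios was not tested.

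**Figure D5:**
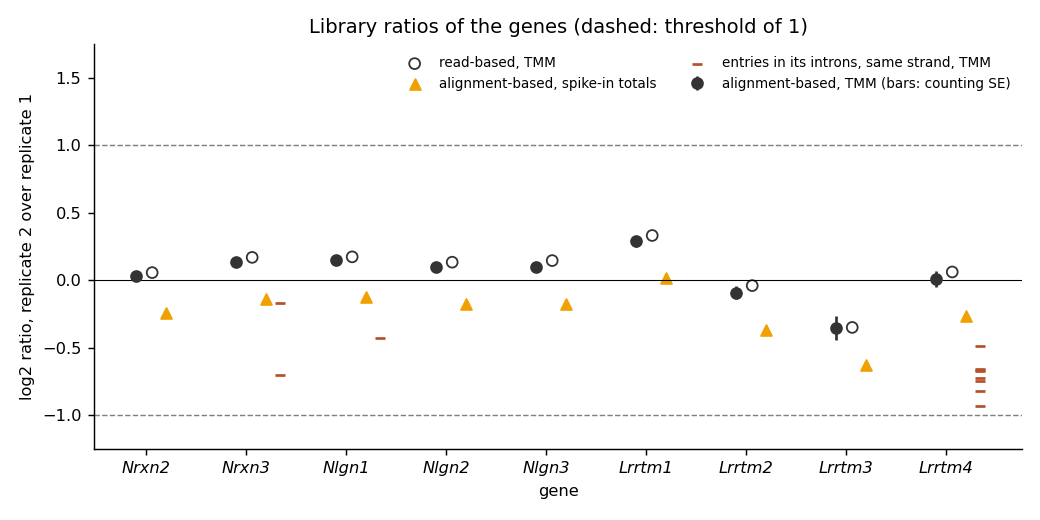
Log2 ratio of replicate 2 over replicate 1 for each gene. Filled circles with counting SE are from the alignment-based table, open circles from the read-based table, triangles are scaled to spike-in totals, and red dashes are separately annotated entries in the introns of a gene. All 9 genes lie well inside the dashed thresholds, and the intronic entries lie below 0.

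Introns of these long genes hold separately annotated entries, mostly of the class awaiting experimental evidence. On the same strand there were 12, with 8 in Lrrtm4, 3 in Nrxn3 and 1 in Nlgn1, and 11 had enough counts to test. All 11 were lower in replicate 2, with 718 summed counts for the 12 entries in replicate 2 and 1064 in replicate 1, and log2 ratios from -0.94 to -0.17 (median -0.68). None was called (0 of 11). Of the 11, 10 belong to the class awaiting evidence, and 1, in Nlgn1, is annotated as sense intronic. Of those 10 none was called, where 11.9% of the 1676 tested entries of the class were called lower in replicate 2. An adjusted p under 0.05 in the exact binomial test was reached by 7 of the 10, where 27.7% of the class reached it and were lower in replicate 2. The class as a whole leaned the same way, with 86.6% of its entries lower in replicate 2 and a median log2 ratio of -0.56, against -0.69 for the 10, so the direction is that of the class. Entries within 1 gene may be parts of 1 transcript and are not independent. The genes themselves did not follow them, since Lrrtm4 had a log2 ratio of 0.01 while its 8 entries had a median of -0.70. The 4 intronic entries on the opposite strand had 0 counts in both libraries, which allows up to 3 counts each, for counting error only. Other opposite-strand genes that overlap these genes did have counts. A830092H15Rik at Nlgn1 had 71 in replicate 2 and 69 in replicate 1, and Gm14964 at Nrxn2 had 34 in replicate 2 and 21 in replicate 1.

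The surrounding pathway was examined as 43 genes in 7 lists. At an adjusted p under 0.05, 13 were higher in replicate 2, where 14.6% of all genes were, and 13 were lower in replicate 2, where 12.1% were. Here and in the lists below, the shares of all genes are not matched for counts. Beyond a log2 ratio of 1, 2 of 43 were called, Nxph3 and Ctnna3, against 2.84% of all genes. Nxph3, a neurexophilin that binds alpha-neurexins, had 6.48 TPM in replicate 2 and 15.4 TPM in replicate 1, a log2 ratio of -1.16 ± 0.10 (counting SE). Ctnna3, the host of Lrrtm3, rested on 20 counts in replicate 2 and 42 in replicate 1.

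Among neurexin adaptors, 6 of 6 were detected, led by Apba1 (Mint1) at 88.1 TPM, Lin7b at 71.7 TPM and Sdcbp (syntenin) at 66.5 TPM, with 2 higher in each library by adjusted p. Of 12 other neurexin ligands, 11 reached 1 TPM in both libraries. The highest were Clstn3 (calsyntenin-3) at 118 TPM, Dag1 (dystroglycan) at 58.1 TPM and Igsf21 at 39.3 TPM. In this list 4 were higher in replicate 2 and 5 in replicate 1. Of all genes, 14.6% were higher in replicate 2 and 12.1% in replicate 1 by adjusted p. Clstn3 was thus above each of the LRRTM genes and the neuroligins in mean TPM, and below Nrxn2.

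Scaffolds and regulators of neuroligins were led by Dlg4 (PSD-95) at 315 TPM and Dlg2 (PSD-93) at 116 TPM. By adjusted p, 5 of 9 were higher in replicate 2, where 14.6% of all genes were, and 1 in replicate 1, where 12.1% were. Dlg4 was the only gene in the 7 lists above Nrxn2. Glypicans, heparan sulfate proteoglycans that include a partner of Lrrtm4, were led by Gpc1 at 73.5 TPM, Gpc5 at 17.99 TPM and Gpc4 at 12.9 TPM, with 2 of 6 higher in replicate 2 and 1 in replicate 1.

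Of the RNA-binding proteins known to regulate splice site 4, Khdrbs3 (SLM2) stood at 111 TPM in replicate 2 and 121 TPM in replicate 1. Khdrbs1 (Sam68) averaged 45.9 TPM and Khdrbs2 (SLM1) 7.15 TPM. By adjusted p, the list had 0 of 3 higher in replicate 2, where 14.6% of all genes were. It had 1 of 3 higher in replicate 1, where 12.1% were. That gene was Khdrbs2, at 5.77 TPM in replicate 2 and 8.52 TPM in replicate 1. Proteases known to shed neurexins and neuroligins were present at 32.8 TPM for Adam10 and 11.2 TPM for Adam17, with 0 of 4 higher in replicate 2 and 1 of 4 in replicate 1.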

How the data were processed

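The deposited files of both total RNA libraries gave, per the file headers, expected counts (estimated reads per gene or transcript, not normalized), TPM (abundance per length, with a fixed sum per library that counts spike-ins too), FPKM (per length and reads, used in 1 alternative), the percent of each gene held by a transcript, and bounds of a credibility interval of TPM, treated as a score, read but not printed. The read-based table gives estimated counts and TPM, per the file headers. The submitters' processing notes name build mm10 and GENCODE M21; the programs that made the tables are not named there. Spike-ins took 0.393% of expected counts in replicate 2 and 0.341% in replicate 1.

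Members, gene lists and tests were chosen with earlier results of these data known. Named were all 9 genes, the 3 most abundant genes of each list by mean TPM, any list member called between the libraries, and the catenin hosts. Of these, 2 list genes and the sequence of 1 exon are not reported here. Exons, starts and coding ends came from GENCODE M21; transcript lengths were checked against the deposited ones. The intronic entries, exon shares, coding ends and counts by transcript start were added after seeing the data. Proteins were not analysed here. Expected counts were rounded for the exact binomial test with edgeR TMM sizes (genes with 10 or more summed counts, pseudocount 0.5 counts); ratios of TPM used a pseudocount of 0.1. With 1 sample per side the test measures counting error, while edgeR put the coefficient of variation between the libraries at 11.1% over 17903 genes. Scripts were tested on simulated data. Software was R 4.3.3, edgeR 4.0.16, DESeq2 1.42.0, limma 3.58.1, Python 3.11.15, numpy 2.4.6, scipy 1.17.1, pandas 2.3.3 and matplotlib 3.10.9.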

Additional observations from a re-analysis of the deposited data

How the results depend on the processing

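No paired analysis was possible because both libraries belong to 1 group. With DESeq2 size factors, no filter on low counts or the read-based table, all 9 log2 ratios between the libraries kept their sign. With total counts, Nrxn2 turned to -0.0401 and Lrrtm4 to -0.0606. Spike-in totals gave 1276 calls among all genes, against 584, and turned Nrxn2 to -0.25, Nrxn3 to -0.14, Nlgn1 to -0.12, Nlgn2 to -0.18, Nlgn3 to -0.18 and Lrrtm4 to -0.27, by the shift of the scaling itself. None of the 9 genes was called under any of these 5 alternatives. The median TPM of the 9 genes was 76.9 in the read-based table and 112 when TPM or FPKM was rescaled to nuclear protein-coding genes, by a smaller total. With 6000 bases as the boundary, the long share of Nrxn2 was 17.5% and its short share 57.9%, and with 4000 the short share of Nrxn3 was 8.46%. As shares of expected counts, which weigh long transcripts more, long forms held 58.4% of Nrxn2 and 58.6% of Nrxn3, and short forms 35.7% and 5.96% in that order. The read-based table gave 28.0% long and 8.62% short for Nrxn3, 35.8% of its family for Nlgn2 and 44.1% for Lrrtm1, and the cause was not tested. Leaving out 1 replicate gave 49.2 to 51.5 TPM for the median, 32.7% to 34.3% long and 37.8% to 46.0% short for Nrxn2, 35.0% to 36.8% long and 9.48% to 9.88% short for Nrxn3, 40.1% to 41.3% for Nlgn2, 46.3% to 51.4% for Lrrtm1, and 8 to 9 unchanged leading transcripts. With 2 libraries, the SD itself is loosely known, and shares of transcripts rest on how each table divides reads among overlapping annotated transcripts.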
